A study of Schizosaccharomyces pombe with 4 samples.

Results

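The nuclear rRNA genes of the fission yeast *Schizosaccharomyces pombe* were taken as every entry of the deposited table that is typed as an rRNA gene and lies on a chromosome other than the mitochondrial one. This gave 47 of 11620 entries. Of these, 9 were 250 nt or longer and 38 were shorter, and the short ones are described apart from the long ones. By position and strand all 47 matched an rRNA gene of the RefSeq annotation (assembly ASM294v3), which also gave each its kind. The long entries were 3 genes of 28S rRNA, 5 entries of 18S rRNA and a 5S entry of 440 nt. The short entries were 3 genes of 5.8S rRNA and 35 entries of 5S rRNA.

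Total RNA was sequenced from a wild-type strain (WT) and from a strain lacking *rrp6* (*rrp6*Δ), with 2 biological replicates of each, and the only stated difference between the strains is the deletion of *rrp6*. External spike-in RNA was added to the total RNA before rRNA was removed with a depletion kit, so every rRNA value below is what that step left. Values are normalized read counts, which are read counts multiplied by 1 factor per library. The study grew its strains in rich (YES) or minimal (EMMG) medium, but which of them these samples had, and their mating type, are not given in the labels.

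The 28S, 18S and 5.8S rRNAs are cut from 1 long precursor made by RNA polymerase I from tandem rDNA repeats, and the spacers between them are removed as the ribosome subunits are assembled. The 5S rRNA is made by RNA polymerase III from separate genes, which in fission yeast are dispersed over the chromosomes, and it joins the large subunit with its own set of proteins. Rrp6 is the nuclear 3′-5′ exonuclease that works with the RNA exosome. In *Saccharomyces cerevisiae* it takes part in trimming the 3′ extension of the 5.8S precursor.

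The rDNA entries all lie on chromosome III, at its 2 ends, in 3 complete units in the order 18S, 5.8S, 28S. In each unit 412 nt separate the 18S from the 5.8S gene and 300 nt separate the 5.8S from the 28S gene. The 3 genes of 28S rRNA (*SPRRNA.47*, *SPRRNA.48* and *SPRRNA.49*, 3485 nt) have identical sequences, and so do the 3 full genes of 18S rRNA (*SPRRNA.43*, *SPRRNA.44* and *SPRRNA.46*, 1842 nt) and the 3 genes of 5.8S rRNA (*SPRRNA.50*, *SPRRNA.51* and *SPRRNA.52*, 165 nt). None of their windows of 50 nt occurs only once in the genome, so the reads of 1 copy cannot be told from those of the others and the value of a single copy is uncertain. The 5.8S gene of the unit at the right end, *SPRRNA.52* (chrIII:2443248-2443412, plus strand, ASM294v3), is printed below because the ratio of 5.8S to 28S reads set the strains apart. Capitals mark the first 30 bases after the annotated gene, in the spacer that a 3′-extended precursor would hold.

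SPRRNA.52: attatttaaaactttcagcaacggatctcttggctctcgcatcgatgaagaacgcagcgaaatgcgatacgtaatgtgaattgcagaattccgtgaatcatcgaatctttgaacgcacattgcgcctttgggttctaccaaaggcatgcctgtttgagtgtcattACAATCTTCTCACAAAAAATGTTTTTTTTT

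The 5S entries are spread over chromosomes I (12 entries), II (16 entries) and III (8 entries), and range from 80 to 440 nt. Most share a core of 119 nt, to which many entries add flank while 4 are shorter than it. The core is the whole of 6 identical entries (*SPRRNA.10*, *SPRRNA.17*, *SPRRNA.20*, *SPRRNA.28*, *SPRRNA.34* and *SPRRNA.39*). In all, 23 of the 36 carry that core unchanged, 1 of them (*SPRRNA.55*) without its first bases, 11 carry 1 to 3 substitutions in it, and 2 (*SPRRNA.54* and *SPRRNA.41*) are diverged. The common core is printed below with the substituted copies that had the most reads or were lower in *rrp6*Δ, and with a diverged copy (RefSeq, ASM294v3). The common core is that of *SPRRNA.10* (chrI:149658-149776, plus strand). The others are from *SPRRNA.05* (chrIII:1690945-1691075, plus strand), which had the most reads, *SPRRNA.53* (chrI:1563479-1563593, plus strand), *SPRRNA.15* (chrI:3547889-3548049, minus strand), *SPRRNA.12* (chrI:912230-912396, minus strand) and the diverged *SPRRNA.54* (chrII:3096968-3097078, minus strand). Capitals mark the bases that differ from the common core. The diverged copy was not aligned and has none.

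Common core: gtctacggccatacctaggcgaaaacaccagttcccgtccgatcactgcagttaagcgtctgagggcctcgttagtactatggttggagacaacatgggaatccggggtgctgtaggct
SPRRNA.05: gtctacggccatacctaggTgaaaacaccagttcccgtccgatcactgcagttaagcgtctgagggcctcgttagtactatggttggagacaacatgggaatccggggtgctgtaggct
SPRRNA.53: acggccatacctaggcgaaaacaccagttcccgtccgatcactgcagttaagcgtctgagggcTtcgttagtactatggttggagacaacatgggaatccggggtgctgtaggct
SPRRNA.15: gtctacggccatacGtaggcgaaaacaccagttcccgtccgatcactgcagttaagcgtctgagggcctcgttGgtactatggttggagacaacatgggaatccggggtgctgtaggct
SPRRNA.12: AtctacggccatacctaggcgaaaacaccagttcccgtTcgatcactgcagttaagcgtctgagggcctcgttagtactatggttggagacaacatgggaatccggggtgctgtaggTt
SPRRNA.54: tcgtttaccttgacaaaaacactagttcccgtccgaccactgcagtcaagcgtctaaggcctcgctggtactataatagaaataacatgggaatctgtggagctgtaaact

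With positions counted from 1 at the 5′ end of the core and the common base written first, *SPRRNA.05* differs by C20T, *SPRRNA.53* by C68T, *SPRRNA.15* by C15G and A74G, and *SPRRNA.12* by G1A, C39T and C118T. A run of TTTT, the kind of sequence at which RNA polymerase III stops, started within 50 nt after the core in 35 of the 36 5S entries (97.2%). The same was found in 97.7% of the 171 nuclear tRNA genes and 49.1% of all entries with enough flank. *SPRRNA.54* was the 5S entry without it. The letters TATA stood within 50 nt before the core in 28 of the 36 (77.8%), against 77.8% of nuclear tRNA genes and 34.3% of all entries. Both searches read the gene's own strand only.

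The libraries held 68813840 and 82419985 reads on the entries in WT and 75295117 and 64913330 in *rrp6*Δ. Nuclear rRNA took 28.9% and 23.6% of these in WT and 23.6% and 24.4% in *rrp6*Δ. The deleted gene itself, *rrp6*, had normalized read counts of 2352 and 2842 in WT and 7.38 and 8 in *rrp6*Δ. Genes used by cells of the M and the P mating type were measured in all 4 libraries and their summed normalized read counts stood at 5027 to 5116 (M) and 1016 to 1046 (P) in WT against 5946 to 6222 and 1205 to 1293 in *rrp6*Δ.

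Strains were compared by limma on the scale log2(normalized read count + 0.729), with Benjamini-Hochberg adjustment over the 11227 transcripts with enough reads, and a transcript was called when its adjusted p was under 0.05 and its change above 2-fold. By this rule 42.6% of all transcripts tested were called higher in *rrp6*Δ and 0.57% lower. Without the limit on fold, 67.6% passed the adjusted p as higher and 4.18% as lower. Over all transcripts the median change was 0.66 on the log2 scale, so a value near 0.66 is no different from that of the middle transcript. All transcripts include cryptic unstable transcripts, which the study selected for being higher in these *rrp6*Δ libraries, so that choice partly sets these shares and the median. Protein-coding genes alone had a median of 0.26, with 324 of 5073 called higher. Other scalings moved the median of all transcripts by between −0.72 (quantile normalization) and −0.07 (library totals).

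Of the 9 long entries 8 were tested, with 0 called higher and 1 called lower. At an unadjusted p under 0.05 limma gave 1 higher and 7 lower, and both DESeq2 and edgeR with the deposited factors also called 0 higher. All 7 entries of 18S and 28S rRNA that were tested passed the adjusted p as lower at some fold, against 4.18% of all transcripts. Without the trend in limma 0 of these 7 passed (adjusted p 0.059 to 0.26), and with the deposited factors 5 passed by DESeq2 and 7 by edgeR. Most long entries are copies of the 18S or 28S gene that share reads, so counts over them are not counts of separate results. With identical members summed 3 entries of 18S and 28S rRNA were tested, and 3 passed as lower. Of the 38 short entries 37 were tested, with 2 called higher (*SPRRNA.52* and *SPRRNA.54*) and 1 called lower (*SPRRNA.12*). Both *rrp6*Δ libraries lay above both WT libraries for 30 of the 38 short entries and for 1 of the 9 long ones, against 79% of all transcripts, and below them for 3 short and 6 long entries, against 7.33%. At any fold 29 of the 37 passed as higher, against 67.6% of all transcripts, and 3 as lower. Single libraries moved these counts. For the short entries 6 were called higher without WT 1 or without *rrp6*Δ 1 and 1 without WT 2, and 0 were called lower without *rrp6*Δ 1 but 2 without WT 2 or *rrp6*Δ 2. For the long entries the lower call was lost without WT 1 or *rrp6*Δ 1, and *SPRRNA.32* was called higher without *rrp6*Δ 1. The median log2 fold change was −0.46 over the long entries and 0.62 over the short ones, the second close to that of all transcripts.

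The 28S rRNA, the catalytic RNA of the large subunit, was the most abundant by reads and lower in *rrp6*Δ. Summed over its 3 identical genes it had 12367896 and 10470336 normalized reads in WT and 7568003 and 9214795 in *rrp6*Δ. Both *rrp6*Δ libraries lay below both WT libraries, with *rrp6*Δ 1 the lowest. Fitted as 1 summed entry the log2 fold change was −0.45 (SE 0.09, adjusted p = 0.00031 by limma), which is under 2-fold and so not called. By copy, *SPRRNA.48* took 55.3 to 55.6% of these reads in every library, although its sequence is that of the other copies, and the 3 copies changed alike (−0.47, −0.45 and −0.42). The 28S values were below 0 under every scaling tried, except that quantile normalization, which sets the highest value of each library equal, gave 0 for *SPRRNA.48* and for the sum (−0.51 and −0.60 for the other copies).

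The 18S rRNA, the RNA of the small subunit, was also lower. The 3 full genes together had 426628 and 294182 normalized reads in WT and 186301 and 248374 in *rrp6*Δ. The groups did not overlap, but WT 2 and *rrp6*Δ 2 lay closer to each other than the WT libraries did. The log2 fold change of the sum was −0.72 (SE 0.14, adjusted p = 0.00016 by limma), below 2-fold. The copy at the right end, *SPRRNA.46*, was the long entry called lower, with 77379 and 50365 in WT and 20857 and 42526 in *rrp6*Δ (log2 fold change −1.07, SE 0.22, adjusted p = 0.00043 by limma). Here *rrp6*Δ 1 stood far below the rest, and the call was lost without WT 1 (−0.76) and without *rrp6*Δ 1 (−0.55). The other full genes changed by −0.60 (*SPRRNA.43*) and −0.72 (*SPRRNA.44*).

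Both other 18S entries are incomplete. *SPRRNA.42* (1390 nt) begins at the first base of the chromosome III sequence and differs from the full gene at 1 base. It had 102894 and 76128 normalized reads in WT and 63656 and 79917 in *rrp6*Δ, and the groups overlapped (log2 fold change −0.31, SE 0.12, adjusted p = 0.033 by limma). *SPRRNA.45* (1001 nt), identical to the start of the full gene and near the right end of the chromosome, had 2.65 and 0.729 in WT and 1.64 and 8 in *rrp6*Δ and was too low to be tested. Copies of the same sequence thus differed in reads by more than the strains did.

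The 5.8S rRNA, which pairs with the 28S rRNA in the large subunit, was higher in *rrp6*Δ with the deposited factors, though single copies turned with those of DESeq2. Summed over the 3 identical genes it had 4572156 and 3227902 normalized reads in WT and 6627701 and 6155473 in *rrp6*Δ. Both *rrp6*Δ libraries lay above both WT libraries, and WT 2 was the lowest. The log2 fold change of the sum was 0.73 (SE 0.11, adjusted p = 1.4e-05 by limma), under 2-fold. This was near the median of all transcripts (0.66) and above that of protein-coding genes (0.26). It kept its sign but fell to 0.19 with TMM factors over all transcripts and was 0 under quantile normalization. The table counts reads within the gene and does not separate mature 5.8S rRNA from longer precursors.

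By copy, *SPRRNA.50* had 1094287 and 954484 normalized reads in WT and 1614199 and 1515458 in *rrp6*Δ (log2 fold change 0.61), and *SPRRNA.51* had 2523828 and 1901398 in WT and 3599996 and 3128991 in *rrp6*Δ (0.62), but with the size factors DESeq2 computes itself they gave −0.056 and −0.067. *SPRRNA.52* had 954040 and 372020 in WT and 1413506 and 1511024 in *rrp6*Δ, and was called higher (1.29, SE 0.25, adjusted p = 0.00018 by limma). WT 2 stood apart here, since *SPRRNA.52* took 11.5% of the 5.8S reads in that library and 20.9 to 24.5% in the others. Without WT 2 the log2 fold change was 0.62, that of the other copies, and the call was lost. Without WT 1 it was 1.97. How the reads were divided among the copies was not tested.

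**Figure D1:**
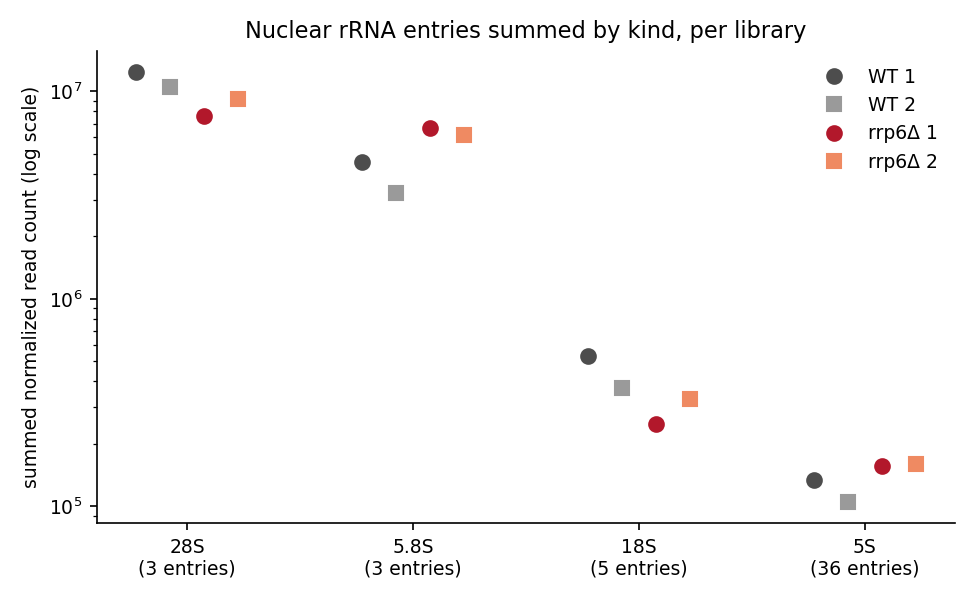
Normalized read counts summed over the entries of each kind of nuclear rRNA (vertical axis, log scale), with 1 point per library and no error bars because every library is shown. The 28S and 18S sums are lower in both *rrp6*Δ libraries and the 5.8S and 5S sums higher with the deposited factors. A large part of the 5S sum is *SPRRNA.05*. The 5S sum turns to −0.13 on the log2 scale with TMM factors over all transcripts, while with quantile normalization the 28S and 5.8S sums show no change.

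Ratios within a library do not depend on the scaling factor. The ratio of 5.8S to 28S reads per nt was 7.81 and 6.51 in WT and 18.5 and 14.1 in *rrp6*Δ. Both *rrp6*Δ values lay above both WT values, and their mean was 2.28 times that of WT. The ratio of 5S to 28S was 0.269 and 0.248 in WT and 0.506 and 0.427 in *rrp6*Δ, 1.80 times higher. A large part of the 5S sum came from 1 substituted copy, *SPRRNA.05*. It had 373 and 256 of 955 and 747 normalized reads per nt in WT. In *rrp6*Δ it had 499 and 461 of 1098 and 1128. With 2 libraries against 2, an exact two-sided permutation test cannot give a p below 0.333, and these ratios were not tested.

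The 18S to 28S ratio was 0.0861 and 0.0714 in WT and 0.0677 and 0.0727 in *rrp6*Δ, and the groups overlapped. The 5.8S to 18S ratio was 90.7 and 91.2 in WT and 273 and 194 in *rrp6*Δ. Within each unit the 5.8S to 28S ratio was also above WT in both *rrp6*Δ libraries: from 7.43 and 7.72 to 17.9 and 14.4 in the outer unit at the left end, from 7.75 and 6.93 to 18.1 and 13.0 in the inner unit, and from 8.47 and 3.81 to 20.5 and 16.9 at the right end. The units share reads, so they are not separate measurements. As a share of nuclear rRNA, 5.8S took 26.0% and 22.8% in WT and 45.4% and 38.8% in *rrp6*Δ, and 28S took 70.3% and 73.9% in WT and 51.8% and 58.1% in *rrp6*Δ. The part of rRNA depletion in these ratios was not tested.

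**Figure D2:**
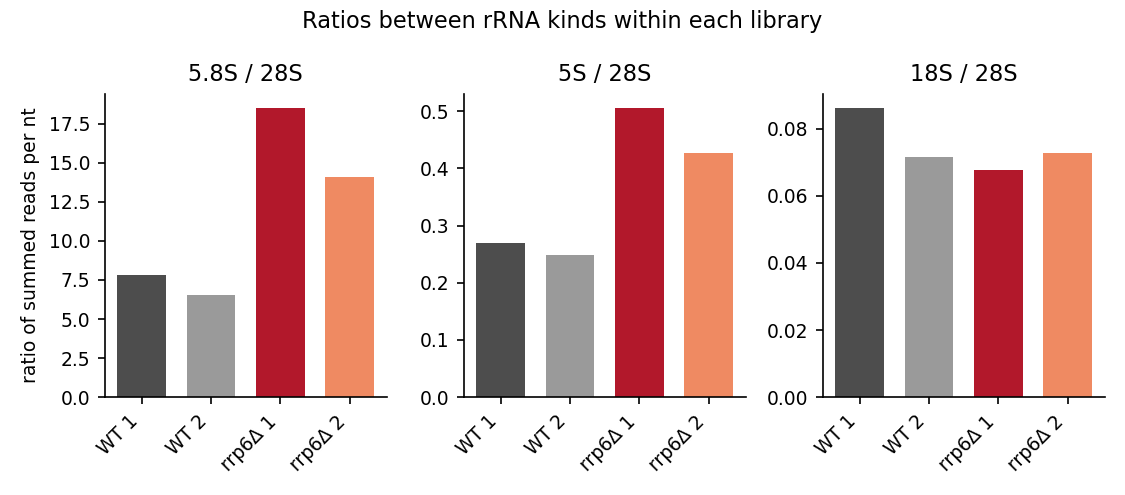
Ratio of summed reads per nt between kinds of rRNA within each library (vertical axes start at 0, 1 bar per library). The 5.8S to 28S and 5S to 28S ratios are higher in both *rrp6*Δ libraries, whereas the 18S to 28S ratios of the strains overlap between 0.0677 and 0.0861.

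With the deposited factors the 5S entries were mostly higher in *rrp6*Δ, but with the factors DESeq2 computes itself most were not. The median log2 fold change of the 5S entries was 0.63 over the 35 tested, 30 of them above 0 and 5 below. This was close to the median of all transcripts (0.66) and above that of protein-coding genes (0.26). Of the 35, 27 (77.1%) passed the adjusted p as higher at any fold, against 67.6% of all transcripts, and 3 (8.57%) as lower, against 4.18%. Without the trend in limma 18 passed as higher and 2 as lower. The direction depends on the scaling: 21 were above 0 with TMM factors over all transcripts, 23 with quantile normalization and 16 with the factors DESeq2 computes itself. These scalings put the median of all transcripts at 0.13, −0.06 and 0.007, so such turns are not particular to 5S entries. The summed 5S reads were 134061 and 105355 in WT and 156387 and 159497 in *rrp6*Δ, and the groups did not overlap. Of these, *SPRRNA.05* alone held 48869 and 33533 in WT and 65431 and 60403 in *rrp6*Δ.

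All 23 copies with the unchanged core had a log2 fold change above 0 (0.21 to 1.00, median 0.75), and 22 passed the adjusted p at any fold, though 17 of them were above 0 with the TMM factors of all transcripts and 13 with the factors of DESeq2, and under quantile normalization they ranged from −0.79 to 0.77. The 6 identical entries together had 9335 and 7808 normalized reads in WT and 12442 and 15626 in *rrp6*Δ. Both *rrp6*Δ libraries were above WT, and as 1 summed entry the log2 fold change was 0.71 (SE 0.12, adjusted p = 3.9e-05 by limma). Windows of the core occur up to 32 times in the genome, so a read within the core cannot be assigned to 1 copy by its own sequence. None of the windows of the 6 identical entries occurs once. Core copies with flank can have windows that do, up to 78.8% of them in *SPRRNA.32*. Among core copies *SPRRNA.06* (chromosome III) had 3493 and 2714 in WT and 5254 and 7200 in *rrp6*Δ (1.00, SE 0.14), just short of 2-fold. *SPRRNA.31* (chromosome II) had 2586 and 2160 in WT and 4757 and 3935 in *rrp6*Δ (0.87, SE 0.12).

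The 5S entry of 440 nt, *SPRRNA.32* (chromosome II), carries the unchanged core and mostly flank that is found once in the genome (78.8% of its windows). It had 623 and 627 normalized reads in WT and 833 and 1494 in *rrp6*Δ. Both *rrp6*Δ libraries were above WT, but *rrp6*Δ 2 was far above *rrp6*Δ 1. The log2 fold change was 0.84 (SE 0.20, adjusted p = 0.0011 by limma). Without *rrp6*Δ 1 it was 1.26 and called, and without *rrp6*Δ 2 it was 0.41.

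The 11 copies with substitutions had a median log2 fold change of 0.11, with a range of −1.08 to 0.71, and 4 passed the adjusted p as higher, 3 as lower and 4 in neither direction. The difference between these copies and those with the unchanged core was not tested, since the copies of each kind can share reads. *SPRRNA.05*, the 5S entry with the most reads, had 48869 and 33533 in WT and 65431 and 60403 in *rrp6*Δ. Its *rrp6*Δ libraries both stood above WT (log2 fold change 0.64, SE 0.13), but it turned to −0.066 with the factors of DESeq2. *SPRRNA.53*, the next by reads, had 16837 and 14010 in WT and 11052 and 13051 in *rrp6*Δ, below WT in both (−0.35, SE 0.11, adjusted p = 0.0085 by limma).

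*SPRRNA.12* was the 5S copy called lower. It had 1509 and 1568 normalized reads in WT and 656 and 805 in *rrp6*Δ. The replicates of each strain were close and the groups far apart, and 73.7% of its windows occur once in the genome. The log2 fold change was −1.08 (SE 0.14, adjusted p = 2.3e-06 by limma). Without *rrp6*Δ 1 it was −0.93 and no longer past 2-fold. *SPRRNA.15* had 13375 and 11360 in WT and 6096 and 6453 in *rrp6*Δ (−0.97, SE 0.10, adjusted p = 3.7e-07), with both *rrp6*Δ libraries below WT but the change just under 2-fold. Without WT 2 it was −1.09, and without *rrp6*Δ 2 −1.02, each past the limit.

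Of the remaining substituted copies, *SPRRNA.11* (C20T, C118T) did not differ detectably, with 3923 and 3384 in WT and 3270 and 3760 in *rrp6*Δ (log2 fold change −0.06, SE 0.12), and turned to 0.051 without WT 1 and 0.045 without *rrp6*Δ 1. *SPRRNA.37* (G110T, C111T, C118T) had 726 and 595 in WT and 1126 and 1029 in *rrp6*Δ, with both *rrp6*Δ libraries above WT (0.71, SE 0.14). The substitution C118T thus occurs in *SPRRNA.12*, *SPRRNA.11* and *SPRRNA.37*, whose log2 fold changes were −1.08, −0.06 and 0.71. Across the 35 tested 5S entries the share of windows found once had a Spearman correlation of −0.03 with the log2 fold change, and the length of the entry one of 0.12. These are descriptions over copies that can share reads.

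The diverged copies had few reads but windows that all occur once in the genome. *SPRRNA.54* had 44.2 and 55.4 normalized reads in WT and 129 and 125 in *rrp6*Δ and was called higher (log2 fold change 1.35, SE 0.23, adjusted p = 5.1e-05 by limma), though it turned to −0.29 under quantile normalization. Its *rrp6*Δ libraries were close to each other and above both of WT. *SPRRNA.41* (80 nt) had 1.77 and 0.729 in WT and 13.1 and 8 in *rrp6*Δ, too low to be tested.

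**Figure D3:**
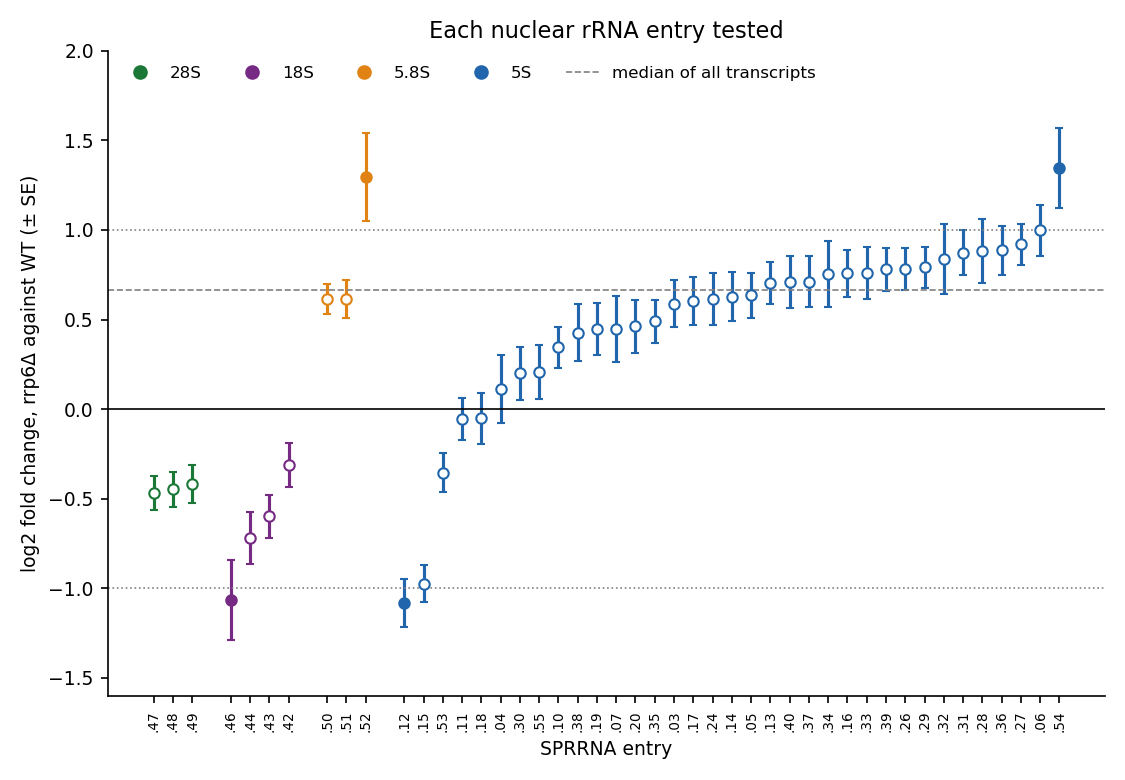
Log2 fold change of *rrp6*Δ against WT for each of the 45 nuclear rRNA entries tested (vertical axis, bars are the limma SE), with entries on the horizontal axis ordered by value within each kind. Filled points were called, dotted lines mark 2-fold and the dashed line is the median over all transcripts at 0.66. The entries of 28S and 18S lie below 0, those of 5.8S above 0, and 5S entries between −1.08 and 1.35. With the factors of DESeq2, 16 of the 45 entries change sign, and the median of all transcripts falls to 0.007.

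**Figure D4:**
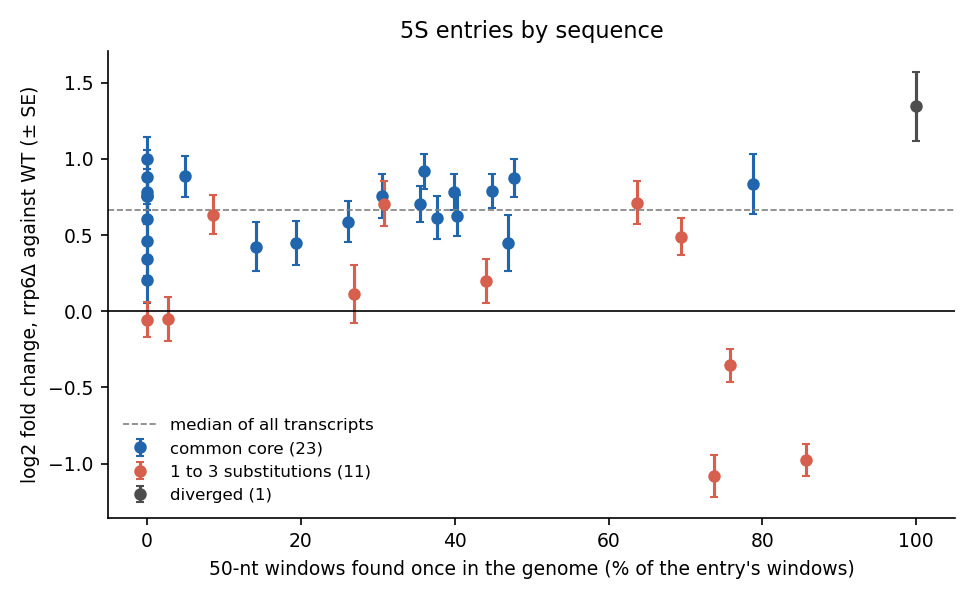
Log2 fold change of the 35 tested 5S entries (vertical axis, bars are the limma SE) against the percent of their 50-nt windows that occur once in the genome, coloured by how the entry's core compares with the common core. The 23 copies with the common core lie between 0.21 and 1.00, though 6 of them fall below 0 with TMM factors over all transcripts, and the 3 lowest points are substituted copies with windows that are mostly unique.

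Several 5S entries lie inside longer entries of the same strand, so part of their reads can come from those. *SPRRNA.15* lies within *pan3*, a gene for a subunit of a poly(A) nuclease, and its reads amounted to 90.1% and 89.5% of all reads of *pan3* in WT and 77.3% and 77.0% in *rrp6*Δ. The log2 fold change of *pan3*, −0.76, is therefore largely that of the 5S entry. *SPRRNA.35* (C40T) overlaps *SPBC24C6.03* by 141 nt and its reads amounted to 63.9 to 66.8% of those of that gene. It had 2335 and 2642 in WT and 3178 and 3831 in *rrp6*Δ (log2 fold change 0.49, SE 0.12), turning to −0.051 with TMM factors over all transcripts and to −0.17 under the factors of DESeq2.

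*SPRRNA.07* overlaps *agp3* by 154 nt and its reads amounted to 29.8 to 30.8% of those of that gene in WT and 16.0 to 20.1% in *rrp6*Δ. It had 149 and 162 in WT and 232 and 194 in *rrp6*Δ (0.45, SE 0.18, turning to −0.091, −0.79 and −0.20 under TMM factors over all transcripts, quantile normalization and DESeq2), and *agp3* was called higher (1.21).

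*SPRRNA.54* lies within *CUT522*, a cryptic unstable transcript, and held 57.1 to 60.7% of its reads. Both changed by nearly the same amount (1.35 and 1.34). Cryptic unstable transcripts were selected by the study for being higher in these *rrp6*Δ libraries, so their change is no independent result. *SPRRNA.10* lies within *SPAC5H10.03* (−0.77) and held 4.35 to 10.4% of its reads. The 5S entry had 1661 and 1612 in WT and 2146 and 2012 in *rrp6*Δ (0.34, SE 0.12, turning to −0.32 under the factors of DESeq2 and to −0.20 under TMM factors over all transcripts). *SPAC5H10.03* had 33968 and 37071 in WT and 20680 and 21061 in *rrp6*Δ. A low share of its reads does not show that few reads of *SPRRNA.10* come from it, and that part was not separated.

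Entries close to the 5S genes were called higher in shares that differed by side and strand. Of 23 entries that end within 500 nt upstream of a 5S gene on its strand, 17 were called higher (median log2 fold change 2.65), and of 9 tested within 500 nt downstream on its strand, 6 were (1.69), against 42.6% of all transcripts. Among the 23 upstream entries 10 were cryptic unstable transcripts, which the study chose on these libraries, and 5 were tRNA genes. Of the 10 downstream entries on its strand 1 was such a transcript. On the other strand 12 of 16 upstream entries and 7 of 22 downstream entries were called higher. Cryptic unstable transcripts made up 7 of those 16 and 5 of those 22. As far as they rest on cryptic unstable transcripts, the shares called higher near 5S genes are no independent result. What lies behind the rest of these shares was not tested. Of these 70 entries 0 were called lower by limma, against 0.57% of all transcripts.

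Of 8 other entries between and beside the rDNA units, 6 were called higher (1.18 to 2.33), 4 of them cryptic unstable transcripts that the study chose on these libraries. The noncoding RNAs *SPNCRNA.1094* and *SPNCRNA.1095*, which start upstream of the 18S gene *SPRRNA.44* on the same strand, had 4268 and 6445 normalized reads in WT 1, 4278 and 6415 in WT 2, 6437 and 10517 in *rrp6*Δ 1 and 3316 and 4391 in *rrp6*Δ 2. The *rrp6*Δ libraries lay on either side of WT for both, and neither was called (log2 fold change 0.11 and 0.08). *SPNCRNA.1299*, beyond the 28S gene of the right end on its strand, had 27.4 and 26.2 in WT and 67.3 and 89.0 in *rrp6*Δ and was called higher (1.50, SE 0.26).

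Other stable RNAs changed by other amounts in the same fit. Both mitochondrial rRNA genes were tested and 0 were called, with log2 fold changes of 0.12 and 0.22. Of the 132 nuclear tRNA genes tested, which RNA polymerase III also transcribes, 131 were called higher (99.2%, against 42.6% of all transcripts), with a median of 2.55 against 0.63 for the 5S entries. Of 53 snoRNAs tested 25 were called higher (47.2%, median 0.92). Protein-coding genes had a median of 0.26.

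The lists for making and processing rRNA held 124 measured genes. Some have other roles, such as the signal recognition particle RNA gene *srp7*, exosome cofactors such as *red1*, and genes of the rDNA fork barrier and silencing. Of the 124 genes, 0 were called higher and 1, *rrp6* itself, was called lower (log2 fold change −8.26, SE 0.19). DESeq2 and edgeR with the deposited factors also called 0 higher, and at an unadjusted p under 0.05 limma gave 42 higher and 8 lower. Their median log2 fold change was 0.19, with 40 past the adjusted p as higher at any fold and 6 as lower, against 67.6% and 4.18% of all transcripts. Of 5073 protein-coding genes, 2368 passed as higher and 359 as lower.

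The exosome and its cofactors (18 genes, median 0.29) had 9 past the adjusted p as higher. The share was 67.6% of all transcripts and 2368 of 5073 protein-coding genes. *dis3*, the other catalytic exosome subunit, had 3603 and 3965 normalized reads in WT and 3656 and 3992 in *rrp6*Δ, with overlapping groups (0.02, SE 0.11). The helicase gene *mtr4* gave 0.11. RNA polymerase I genes (16, median 0.10) had 6 past as higher and 1 as lower. Among them *rrn3*, for an initiation factor, had 5194 and 5560 in WT and 7133 and 7846 in *rrp6*Δ (0.48, SE 0.10).

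The RNA polymerase III genes and factors (20, median 0.21) had 6 past as higher and none as lower. Of all transcripts 67.6% and 4.18% passed, and of 5073 protein-coding genes 2368 and 359. The TFIIIA gene *sfc2*, whose product binds within 5S genes, had 880 and 1047 normalized reads in WT and 1165 and 1279 in *rrp6*Δ (0.35, SE 0.13), and the Pol III repressor gene *maf1* had 560 and 611 in WT and 904 and 933 in *rrp6*Δ (0.65, SE 0.14). Both had their *rrp6*Δ libraries above WT, under 2-fold. Proteins that bind 5S rRNA (7 genes, median −0.08) had 1 past as higher and 1 as lower, the latter *rpl501*, for the ribosomal protein that carries 5S rRNA (97629 and 103357 in WT, 85452 and 90001 in *rrp6*Δ, −0.20).

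The other lists were called in no direction: nucleases of pre-rRNA processing (10 genes, median 0.18), core proteins of snoRNPs (8, 0.09), assembly and processing factors (36, 0.22) and genes of the rDNA fork barrier, termination and silencing (6, 0.20). At an unadjusted p under 0.05 limma gave 3, 1, 14 and 3 genes in these lists in either direction. Among the 3 small RNAs, *mrp1*, the RNA of RNase MRP, which cuts the precursor ahead of 5.8S rRNA in *S. cerevisiae*, had 171004 and 163217 in WT and 329487 and 297661 in *rrp6*Δ (0.91, SE 0.08). Its *rrp6*Δ libraries stood well above WT, at just under 2-fold. The signal recognition particle RNA *srp7* changed by nearly as much (0.87, SE 0.08), and the RNase P RNA *rrk1* gave 0.04.

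The change of each kind of rRNA was also set against the scaling. Summed over its entries, 18S gave −0.63 with the deposited factors and −1.17 with TMM factors over all transcripts, 28S −0.45 and −0.99, 5.8S 0.73 and 0.19, and 5S 0.41 and −0.13. With TMM factors from protein-coding genes the values were −0.87, −0.69, 0.49 and 0.16, and with library totals −0.70, −0.51, 0.67 and 0.34. The order of the kinds, with 18S lowest, then 28S, 5S and 5.8S, was the same under these scalings, since each multiplies all entries of a library by 1 factor. Relative to the median of all transcripts, 18S was 1.29 lower on the log2 scale, 28S 1.11 lower, 5S 0.25 lower and 5.8S 0.07 higher.

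**Figure D5:**
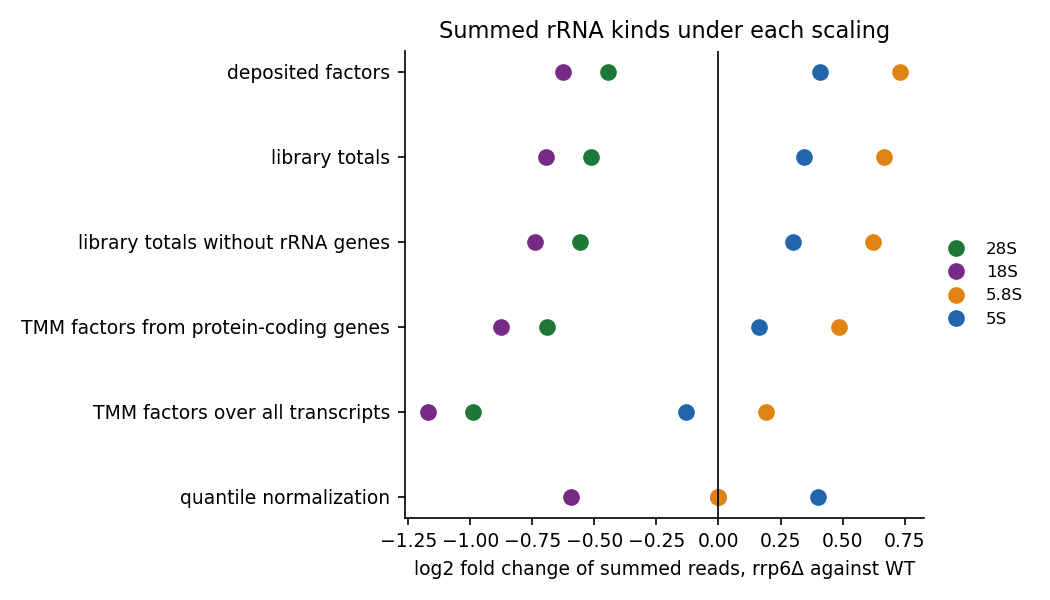
Log2 fold change of the summed reads of each kind of rRNA (horizontal axis) under 6 scalings (vertical axis), 1 point per kind and no error bars. The 5S sum turns from 0.41 with the deposited factors to −0.13 with TMM factors over all transcripts, whereas under quantile normalization the 28S and 5.8S points both lie at 0, where 5.8S covers 28S.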

How the data were processed

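Total RNA-seq of WT and *rrp6*Δ was used, with 2 biological replicates each, grouped by their titles. The authors added ERCC spike-in RNA, depleted rRNA, made strand-specific libraries, mapped read pairs with TopHat and normalized densities on the spike-in. The study names a genome release and a counter for its other RNA-seq data, and states that a plot of coding genes and cryptic unstable transcripts used uniquely mapped reads. For this table these are not given in the sources used here, and it does hold reads on genes in which no 50-nt window is unique. The deposited values are a signal: read counts multiplied by 1 factor per library (0.884, 0.729, 0.820 and 1). Dividing by it gave whole reads for 100% of values (tolerance 1e-06), from 64913330 to 82419985 per library. Sampling noise was exceeded between replicates (chi-square per degree of freedom 116 in WT and 28.6 in *rrp6*Δ).

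Of 21852 rows, 10204 coding-sequence pieces and 28 duplicates were left out. limma 3.58.1 with trend was run in R 4.3.3 on log2(value + 0.729), with strain as the only term, for 11227 transcripts passing filterByExpr with a minimum of 10. On the whole reads, edgeR 4.0.16 (quasi-likelihood, deposited factors) called 4783 transcripts higher and 65 lower, and limma 4780 and 64. DESeq2 1.42.0, other scalings, pseudocounts and filters, a replicate block and leaving out each library were the alternatives. The limma script was tested on simulated data. Positions matched the RefSeq assembly ASM294v3, in which 99.9% of 5119 coding sequences opened with ATG. Named were all long entries and, of the short ones, the 5 with the most reads, those called, the longest and the shortest. Entries with a sequence of their own were given by range, except for some, with a few core copies, that were chosen after their values were seen. Members and gene lists were chosen with earlier results of these data known. Of 135 listed symbols, 11 were not matched.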

Additional observations from a re-analysis of the deposited data

How the results depend on the processing

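With the deposited factors, edgeR, other filters and other pseudocounts kept each count of nuclear rRNA genes called within 1.5 times. Of the long entries 4 were called lower with TMM factors over all transcripts, 6 with the factors DESeq2 computes itself, 0 with DESeq2 and the deposited factors, 0 with limma without trend, 0 with identical members summed and 7 without a fold limit, where 1 was called higher. Of the short entries 0 were called higher with TMM factors over all transcripts, quantile normalization or the factors of DESeq2, 1 with limma without trend or identical members summed, and 29 without a fold limit. Lower calls among them numbered 2 with either set of TMM factors, with library totals, with or without rRNA genes, and with quantile normalization, and 3 with the factors of DESeq2 and without a fold limit. Leaving out each library in turn gave 0 to 1 long entries higher, 0 to 1 lower, 1 to 6 short entries higher and 0 to 2 lower. Of the genes for making and processing rRNA, 0 to 1 were called higher and 1 lower in each of these fits, 2 were called lower with the factors of DESeq2, and without a fold limit 40 were called higher and 6 lower. At any fold, 0 of the 3 genes of 5.8S rRNA passed the adjusted p with TMM factors over all transcripts or the factors of DESeq2, and 2 did with limma without trend. Of the entries of 18S and 28S rRNA, 7 of which were tested, 5 passed as lower without a filter on low values or with quantile normalization and 6 without WT replicate 1 or *rrp6*Δ replicate 1.

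Directions turned with the factors of DESeq2 for *SPRRNA.50* (−0.056), *SPRRNA.51* (−0.067), *SPRRNA.05* (−0.066), *SPRRNA.10* (−0.32), *SPRRNA.07* (−0.20) and *SPRRNA.35* (−0.17), with TMM factors over all transcripts for *SPRRNA.10* (−0.20), *SPRRNA.07* (−0.091) and *SPRRNA.35* (−0.051), with quantile normalization for *SPRRNA.54* (−0.29) and *SPRRNA.07* (−0.79), and for *SPRRNA.11* without WT replicate 1 or *rrp6*Δ replicate 1 (0.051 and 0.045, over a range of −0.16 to 0.051 when each library was left out). The cause was not tested beyond the shift of the median that each scaling makes.

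With the replicate number as a block, 0 long entries were called higher, 1 lower, 2 short entries higher and 1 lower, as without it. Same-numbered libraries did not deviate together (correlation 0.01 across transcripts), so no pairing by number was seen. A check on so few libraries cannot exclude one. Depth limits few of the rRNA values. Too few reads left 2 entries untested, and *SPRRNA.54*, which was called higher, had only 50 and 76 reads in WT and 157 and 125 in *rrp6*Δ. With 2 libraries per strain the spread between replicates limits them all.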
